A study of Mus musculus with 62 samples.

Results

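The 24 ER-Hoxb8 clones of this mouse series each gave 1 monocytic RNA library, and these libraries differed in how strongly they expressed a neutrophil granule gene, Ngp, against a monocyte receptor gene, Csf1r. The clones compared here were selected on those measured values. A score was taken as log2(CPM + 1) of Ngp minus log2(CPM + 1) of Csf1r, where CPM is the read count of a gene divided by the total count of its library in M (mega). The 8 clones with the highest score are called high-score clones and the 8 with the lowest score low-score clones, so that 16 of the 24 monocytic libraries, out of 62 libraries in all, entered the comparison. The high-score clones were 9, 21, 19, 20, 3, 2, 8 and 6, with scores from 4.85 to 9.42. The low-score clones were 5, 15, 18, 25, 24, 22, 17 and 23, with scores from -4.91 to 1.46. Just outside the groups lay clone 7 with a score of 4.60, next to clone 6 at 4.85, and clone 1 with 1.62, next to clone 5 at 1.46. Ngp and Csf1r made the groups and are left out of all results.

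All clones are ER-Hoxb8 cells from mouse bone marrow, kept in RPMI medium with serum, antibiotics and stem cell factor (SCF). Their Hoxb8 is fused to an estrogen receptor domain, so that it holds granulocyte-monocyte progenitors in division while estrogen is present. Each clone was sequenced as a progenitor library (Plus) and as a monocytic library (Minus), and high-score and low-score clones share this origin and treatment. A clone is 1 line with 1 library per state, and the labels do not say from which animals or cultures the clones came or how long the monocytic cells had matured. They give no strain, age or genotype beyond Hoxb8. The p-values below measure the spread among these clones. The 14 other libraries are primary bone marrow monocytes, sorted as classical, intermediate and nonclassical cells and as class 1 to class 4, with 2 libraries each.

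Granulocytes and monocytes arise from a common progenitor. In the granulocyte branch, transcription factors of the C/EBP family, above all C/EBP epsilon, switch on the proteins of the later neutrophil granules, while the enzymes of the primary granules are made earlier and in both branches. In the monocyte branch, PU.1, Irf8 and Klf4 act with the Csf1 receptor, and lysosomal enzymes, scavenger receptors and antigen presentation genes rise as the cells mature. All libraries here are labelled as monocytic, so the comparison asks how far clones of that label differ along these branches.

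**Figure D1:**
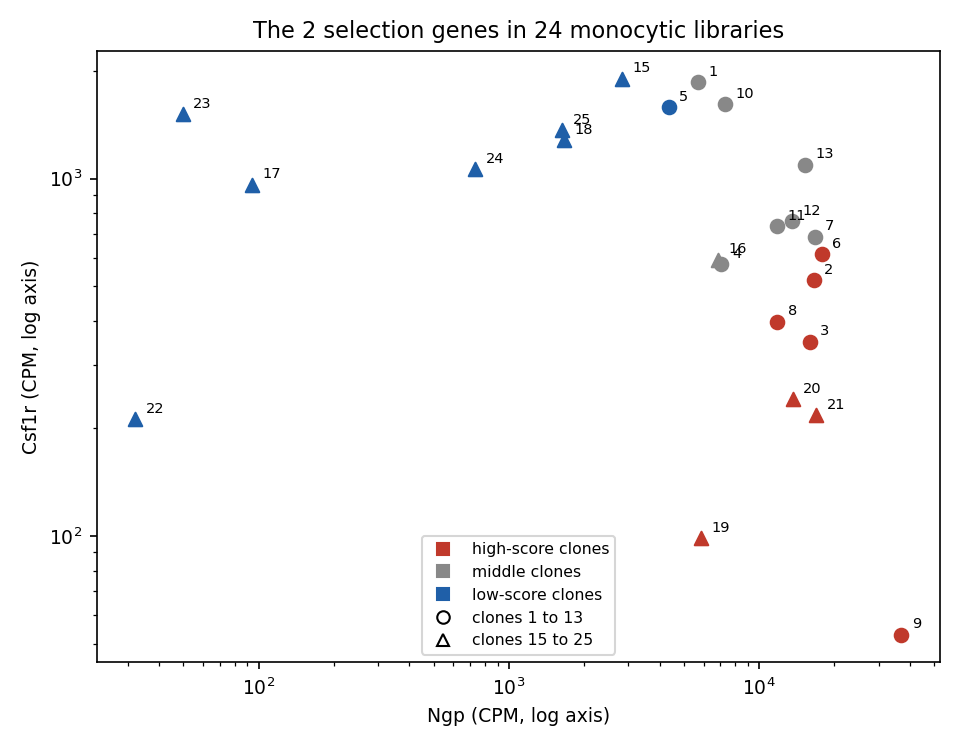
CPM of Ngp (x axis, log scale) and Csf1r (y axis, log scale) in the 24 monocytic libraries, with clone numbers; colours give the score groups and symbols the clone sets. High-score clones lie at the lower right, with Csf1r between 53 and 615 CPM, and clone 22 stands alone at the lower left, low in both genes.

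The groups were uneven in clone set and in library depth, and the labels do not say how the clone sets differ. Of the high-score clones 5 came from the set numbered 1 to 13 and 3 from the set numbered 15 to 25, whereas only clone 5 of the low-score clones belonged to the first set. Monocytic libraries held 22.9 to 27.6 M counts in the 6 compared clones of the first set and 1.83 to 9.12 M in the 10 of the second. Fits therefore held the clone set as a covariate, and values within each set are given for the gene lists and genes the account turns on. The clone 21 progenitor library held 0.362 M counts, against 3.25 M or more in the other 15 progenitor libraries.

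The label was checked against other markers. Clone 22, a low-score clone, had 212 CPM of Csf1r and 32.1 CPM of Ngp, and its monocytic library held 21026 CPM of Mpo, the myeloperoxidase of primary granules, against 7516 CPM in its own progenitor library. Clone 17 had 7681 CPM of Mpo and clone 19, a high-score clone, 10120 CPM. Clones 21, 20, 15 and 25 had between 10.4 and 33.8 CPM. Mpo thus did not separate the groups, and clone 22 was low in both genes of the score rather than high in the monocyte gene. Fits were therefore repeated without clones 17 and 22, a choice made after seeing the data; of the 149 genes the naming rule took, 8 lost and 8 gained their monocytic call, and the values are given where a gene described here is among them. The B and T cell genes Pax5, Cd3e and Cd8a had no count in any of the 16 monocytic libraries. Other members of the B cell and the T and NK cell lists were present. Blnk reached 67, Cd22 47.8 and Il7r 194 CPM in low-score clones, and all were called lower in the high-score clones.

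In the monocytic libraries, calls among late neutrophil genes were nearly all higher in the high-score clones (11 of 21 secondary and tertiary granule genes and 16 of 30 maturation genes, with 1 lower). Calls among lysosomal (14 of 31), monocyte differentiation (10 of 32) and macrophage genes (5 of 26) were all lower, and most members of these 3 lists were not called. Of 10847 genes tested with edgeR, 1386 (12.8%) were called higher and 1183 (10.9%) lower, a call being a Benjamini-Hochberg adjusted p under 0.05; 831 and 840 of them differed at least 2-fold. Since the groups were cut from the same libraries, a call here says how closely a gene followed the score and is not a test, and no p-value of this comparison is given as support. Values of the 2 groups did not overlap at all for 145 genes that were above (1.34%) and 288 that were below (2.66%) in the high-score clones. The 8 clones left in the middle had a median between those of the groups for 76.3% of the genes called higher. The share was 93.2% of those called lower and 63.7% of all genes tested. The same score placed these clones in the middle, so the shares are a description and give no support. Of the 8, 7 came from the set 1 to 13, and the medians were not adjusted for the set. In bulk libraries, fewer cells of a type and less RNA per cell cannot be told apart. Of the 2569 calls, 2132 (83%) were also made without clones 17 and 22. Without clone 21 there were 1370 calls and without clone 20 there were 1584. Within clones 15 to 25 alone (3 against 7) 2258 genes were called, and within clones 1 to 13 alone (5 against 1) 3 were.

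The granules and cytosol of maturing neutrophils were described by 2 of the lists. Of 21 secondary and tertiary granule genes tested, 11 were called higher and none lower, with a median log2 fold change of 2.12, against -0.022 over all genes tested. Of 30 neutrophil maturation genes, 16 were called higher and 1 lower, with a median of 2.09. Within clones 1 to 13 and clones 15 to 25 the medians were 0.84 and 3.23 for the former list and 0.53 and 2.72 for the latter. The summed level of the latter list ran from 64525 to 124132 CPM in the high-score and from 1991 to 21718 CPM in the low-score clones.

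S100a8, which encodes a calcium-binding subunit of calprotectin, stood at 42032, 30491, 35991, 22964, 23455, 25226, 27066 and 20024 CPM in high-score clones 9, 21, 19, 20, 3, 2, 8 and 6. In low-score clones 5, 15, 18, 25, 24, 22, 17 and 23 it stood at 5149, 3951, 4006, 5330, 3212, 183, 1499 and 909 CPM. All high-score clones were above all low-score clones, and clone 22 was the lowest. The log2 fold change of S100a8 was 3.32 ± 0.594 (SE), 2.42 within clones 1 to 13 and 3.78 within clones 15 to 25, and 3.04 without clones 17 and 22. Its partner S100a9 ran from 28455 to 63461 CPM with a median of 38656 in the high-score clones and from 81.1 to 7738 with a median of 4957 in the low-score clones, again without overlap.

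Camp, the cathelicidin of secondary granules, stood at 5893, 1536, 1046, 1149, 3202, 3451, 4417 and 2713 CPM in the high-score clones in the same order. The low-score clones had 596, 273, 71.3, 129, 26.6, 1.26, 9.1 and 2.41 CPM. In both groups the clones of the set 1 to 13 had higher Camp than those of the set 15 to 25, and the groups did not overlap. The log2 fold change was 3.79 ± 0.929, and 2.72 and 4.35 within the 2 sets.

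Lrg1, a glycoprotein released from neutrophil granules, had a lowest, median and highest level of 117, 175 and 543 CPM in the high-score and 9.87, 28.9 and 58.1 CPM in the low-score clones. Pglyrp1, which binds bacterial peptidoglycan, had 1001, 1289 and 2095 against 14, 181 and 318 CPM. Neither gene overlapped between the groups, with log2 fold changes of 2.92 ± 0.454 and 3.12 ± 0.5. Ltf, the iron-binding lactoferrin, had 4374, 8178 and 13316 against 0.314, 318 and 3928 CPM, also without overlap. It was not called, at a log2 fold change of 3.17 ± 1.15; clone 22 had the lowest and clone 5 the highest low-score value. Without clones 17 and 22 Ltf was called, at 2.77.

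Ltb4r1, the receptor for the neutrophil attractant leukotriene B4, had the largest difference relative to its SE among the genes the naming rule took. It stood at 462, 350, 708, 300, 367, 319, 223 and 344 CPM in the high-score clones. The low-score clones had 116, 86.9, 143, 81, 98.6, 155, 133 and 100 CPM. Its log2 fold change was 2.08 ± 0.212, with 1.55 and 2.36 within the sets. Anxa1, a phospholipid-binding protein of tertiary granules, differed by 1.70 ± 0.309, with 0.81 and 2.18 within the sets. Csf3r, the receptor for G-CSF, had 108, 264 and 761 CPM against 93, 152 and 399 CPM. Its groups overlapped, and the log2 fold change was 1.57 ± 0.43, of which 0.43 within clones 1 to 13 and 2.19 within clones 15 to 25; clones 20 and 21 held its 2 highest values. Ly6g, the surface protein that defines mouse neutrophils, was called at 3.06 ± 0.806 but reached only 1.09 to 9.5 CPM in the high-score clones and at most 3.49 CPM, in clone 5, in the low-score clones.

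The primary granule list showed no such excess of higher calls. Of 14 members tested, 2 were called in each direction. The 2 lower ones were Calr (-1.52) and Gstm1 (-1.42), members of the list that are not themselves granule enzymes. The median log2 fold change of 0.10 joins opposite signs in the 2 clone sets. It was 2.26 within clones 1 to 13, with 11 of 14 positive, and -0.43 within clones 15 to 25, with 9 of 14 negative. Mpo ran from 14.8 to 10120 CPM with a median of 1167 in the high-score clones. In the low-score clones it ran from 10.4 to 21026 CPM with a median of 984, a complete overlap. Its log2 fold change was 2.51 within clones 1 to 13 and -0.18 within clones 15 to 25. Elane, neutrophil elastase, ran from 1.35 to 1776 and from 4.31 to 2234 CPM and was not called at -0.67 ± 1.64, with 2.74 within clones 1 to 13 and -1.35 within clones 15 to 25.

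**Figure D2:**
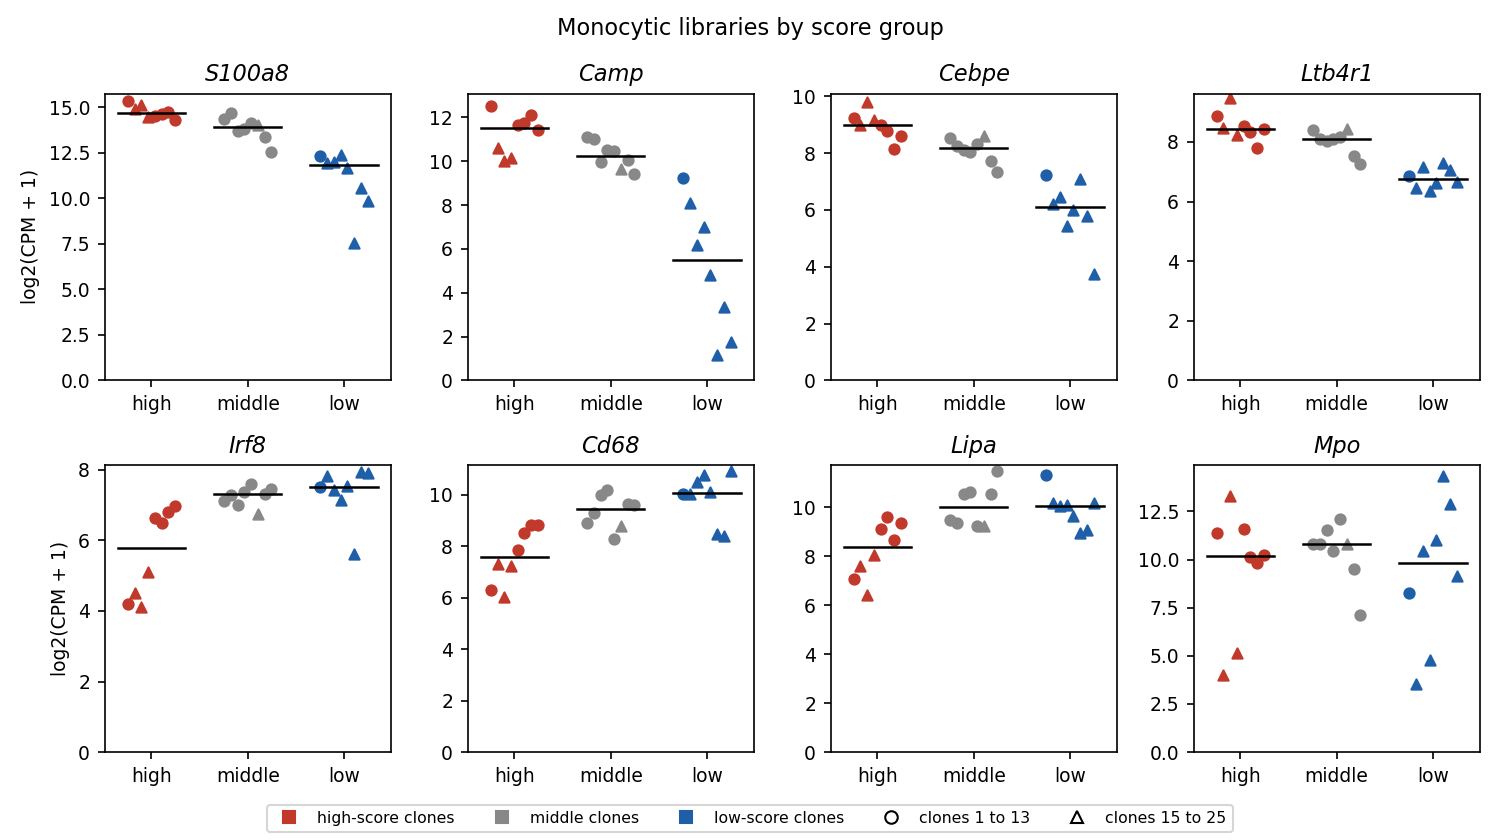
log2(CPM + 1) of 8 genes in the monocytic libraries of the high-score, middle and low-score clones (8 points each; circles, clones 1 to 13; triangles, clones 15 to 25; bars, medians). S100a8, Camp, Cebpe and Ltb4r1 do not overlap between the high and low groups; Irf8, Cd68 and Lipa are lower in the high group with some overlap; Mpo spans the same range in both.

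Cebpe encodes C/EBP epsilon. It stood at 598, 504, 885, 574, 507, 434, 278 and 389 CPM in the high-score clones and at 149, 73.6, 86.4, 42.6, 63.4, 136, 54.2 and 12.3 CPM in the low-score clones. The lowest high-score clone, 8, was above the highest low-score clone, 5. The log2 fold change was 2.96 ± 0.422, 1.55 and 3.70 within the sets. Of 21 granulocyte regulators tested, 8 were called higher and 1 lower; the list's median was 0.94, and -0.02 and 1.27 within the sets. Cebpd, another C/EBP factor, had 225, 250 and 415 against 84.1, 143 and 206 CPM, and Id1, an inhibitor of helix-loop-helix factors, 30.7, 40.6 and 64.5 against 7.18, 14.5 and 24.8 CPM. Their log2 fold changes were 1.39 ± 0.23 and 1.88 ± 0.257, without overlap of the groups. Cebpa, the earlier acting family member, was not called (-0.46 ± 0.392).

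Gfi1, a repressor that favours granulocytes, was not called over all 16 clones (0.94 ± 0.821). Its highest values were 425 CPM in clone 22, 234 CPM in clone 9, 222 CPM in clone 19 and 212 CPM in clone 17, so that the 2 low-score clones rich in Mpo ranked with the highest high-score clones. Without clones 17 and 22 its log2 fold change was 2.19 and it was called.

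Monocyte regulators leaned the other way, with 6 of 25 called lower, 2 higher and a median of -1.24. Irf8, which drives monocyte fate, stood at 17.4, 21.6, 16.4, 33.4, 97.9, 88.4, 111 and 125 CPM in the high-score clones. The low-score clones had 183, 227, 173, 141, 184, 48.1, 245 and 242 CPM. Only clone 22 at 48.1 CPM fell within the range of the high-score clones. Within the high-score group, clones 9, 21, 19 and 20, the 4 with the highest scores, had at most 33.4 CPM and the other 4 at least 88.4 CPM. The log2 fold change was -2.16 ± 0.548, with -1.08 and -2.46 within the sets.

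Klf4, which acts with Irf8 in monocytes, had 1.64, 7.18 and 14.5 against 2.79, 15.9 and 30.6 CPM and a log2 fold change of -1.84 ± 0.59, with -0.50 and -2.32 within the sets. Egr2, induced by Csf1 receptor signals, had 0, 3.49 and 12.8 against 0.943, 7.89 and 51.7 CPM and -2.73 ± 0.635. Both overlapped between the groups. Sfpi1, the older symbol for Spi1, which encodes PU.1 and is needed in both branches, was called higher by 0.75 ± 0.242. Its groups overlapped at 503 to 1100 and 410 to 819 CPM, and within clones 1 to 13 the value was -0.10. Without clones 17 and 22 it was not called, at 0.60.

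Promoter sequence is shown for 2 higher and 2 lower genes, chosen after their values were seen. They are members of the secondary and tertiary granule, oxidase, monocyte differentiation and lysosomal lists. The member of the first list, Ltb4r1, is a receptor gene and does not encode a granule protein. Windows were the 250 bases before the start of each gene in RefSeq (build GRCm38.p6). They were searched on both strands for TTNNGCAA (the core bound by C/EBP), GAGGAA (bound by PU.1) and GGAANNGAA (bound by PU.1 with an IRF). Capitals mark a match to any of these, and each sequence is written in the direction of its gene.
Ltb4r1, chr14:55765712-55765961, + strand: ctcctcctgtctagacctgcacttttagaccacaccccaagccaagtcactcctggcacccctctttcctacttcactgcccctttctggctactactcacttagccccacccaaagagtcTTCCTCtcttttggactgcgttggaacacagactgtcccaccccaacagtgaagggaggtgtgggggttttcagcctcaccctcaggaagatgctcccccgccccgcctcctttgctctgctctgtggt
Ncf1, chr5:134229626-134229875, - strand: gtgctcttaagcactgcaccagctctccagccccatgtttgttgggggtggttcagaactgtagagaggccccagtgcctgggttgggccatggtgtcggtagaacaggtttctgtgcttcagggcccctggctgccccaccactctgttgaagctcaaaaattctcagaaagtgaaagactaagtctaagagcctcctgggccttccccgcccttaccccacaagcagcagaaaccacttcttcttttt
Cd68, chr11:69666171-69666420, - strand: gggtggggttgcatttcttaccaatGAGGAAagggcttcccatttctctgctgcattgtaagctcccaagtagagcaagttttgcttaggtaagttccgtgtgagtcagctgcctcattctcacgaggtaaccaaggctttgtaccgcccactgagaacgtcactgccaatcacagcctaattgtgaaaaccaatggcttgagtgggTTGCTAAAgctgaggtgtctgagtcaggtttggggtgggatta
Lipa, chr19:34527475-34527724, - strand: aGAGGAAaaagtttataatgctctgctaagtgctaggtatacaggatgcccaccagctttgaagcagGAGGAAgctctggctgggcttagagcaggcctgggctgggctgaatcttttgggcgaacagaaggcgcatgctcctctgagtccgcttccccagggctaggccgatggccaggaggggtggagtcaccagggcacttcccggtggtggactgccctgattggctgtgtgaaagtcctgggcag

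The window of Ltb4r1 held 1 match to GAGGAA, on the reverse strand 129 bases before the start, and the window of Ncf1 none of the 3 motifs. Cd68 held 1 match to GAGGAA and, 43 bases before the start, 1 to TTNNGCAA on the reverse strand. Lipa held 2 matches to GAGGAA. Over all genes, TTNNGCAA was present in 7.61% of 1090 windows of genes called higher and 7.06% of 935 windows of genes called lower, against 7.49% of 8587 windows of genes tested and 9.55% of all 27025 windows. For GAGGAA the shares were 23.6%, 24.4%, 23.2% and 23.1%, and for GGAANNGAA 7.16%, 5.35%, 6.11% and 7.03%. A match is a run of letters, not a site shown to be bound.

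The phagocyte NADPH oxidase makes superoxide. Of its 7 members 4 were called higher, none lower and all had a positive difference, with a median log2 fold change of 1.14. Within clones 1 to 13 the median was 0.39 with 6 of 7 positive, and within clones 15 to 25 it was 1.55. Ncf1, a cytosolic subunit, stood at 1579, 3028, 1951, 2993, 1630, 1587, 1460 and 1479 CPM in the high-score clones. It stood at 1173, 943, 806, 830, 758, 520, 660 and 596 CPM in the low-score clones. The groups did not overlap, but clones 2, 3, 6, 8 and 9 were near clone 5. The log2 fold change was 1.65 ± 0.311, of which 0.39 within clones 1 to 13 and 2.31 within clones 15 to 25. Ncf4, another cytosolic subunit, differed by 1.30 ± 0.225. The membrane subunit Cyba was not called (0.45 ± 0.271).

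Of 31 lysosomal genes 14 were called lower and none higher, with a median of -1.12, and -0.99 and -1.09 within the sets. The summed level was 9889 to 26891 CPM in the high-score and 18422 to 49639 CPM in the low-score clones. Gaa, the acid alpha-glucosidase that degrades glycogen, stood at 45.6, 31.3, 92.5, 45, 59.9, 64.1, 54.4 and 75.6 CPM in the high-score clones. The low-score clones, clones 17 and 22 included, lay within a narrow range, at 205, 159, 205, 174, 174, 205, 174 and 177 CPM. Its log2 fold change was -1.52 ± 0.183, -1.79 and -1.36 within the sets.

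Glb1, the lysosomal beta-galactosidase, ran from 17.5 to 93 CPM in the high-score and from 102 to 159 CPM in the low-score clones, with a log2 fold change of -1.30 ± 0.262 and no overlap. Lipa, the lysosomal acid lipase, had 83.2, 334 and 783 against 486, 1065 and 2545 CPM. It differed by -2.04 ± 0.429, with overlap. Grn, the abundant progranulin, was not called over all clones (-0.99 ± 0.411) and was called without clones 17 and 22 (-1.20).

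Of 32 monocyte differentiation genes, 10 were called lower and none higher, with a median log2 fold change of -1.96, and -0.72 and -2.21 within the sets. Cd68, a glycoprotein of macrophage endosomes, stood at 78.1, 156, 65.1, 151, 231, 365, 448 and 457 CPM in the high-score clones. In the low-score clones it stood at 1057, 1053, 1463, 1736, 1108, 351, 335 and 1922 CPM. Clones 22 and 17 fell within the high-score range and the other 6 low-score clones above it. The difference was -2.53 ± 0.603 over all and -2.81 without these 2 clones. Pld4, an endolysosomal exonuclease, had 33.5, 110 and 223 against 146, 514 and 1061 CPM (-2.88 ± 0.635), and Ccr2, the chemokine receptor of classical monocytes, 33.2, 148 and 437 against 199, 391 and 1220 CPM (-2.26 ± 0.706, with -0.74 and -2.68 within the sets). Ctss, cathepsin S, differed by -2.60 ± 0.863.

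Markers used to sort monocyte subsets behaved otherwise. Ly6c2, the antigen of classical monocytes, ran from 257 to 1178 CPM in the high-score and from 249 to 2646 CPM in the low-score clones and was not called (-0.42 ± 0.593). Its difference was 1.51 within clones 1 to 13 and -0.91 within clones 15 to 25. Cx3cr1, higher on nonclassical monocytes, was not called at -1.67 ± 0.654, with 7.86 CPM in clone 22 and at least 87.3 CPM in the other low-score clones. Without clones 17 and 22 it was called (-1.92).

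Of 26 macrophage genes 5 were called, all lower; the median log2 fold change over the 26 was -1.65, and -0.51 and -1.86 within the sets. Gpnmb, a glycoprotein of lysosome-rich macrophages, ran from 211 to 2747 CPM in the high-score and from 2886 to 9748 CPM in the low-score clones, without overlap (-2.56 ± 0.606). Mmp12, macrophage elastase, had 23, 79.5 and 510 against 132, 230 and 2275 CPM (-3.21 ± 0.663). Cd163, the haemoglobin scavenger receptor, differed by -3.95 ± 0.772 but was low throughout, with at most 5.7 CPM. Interferon-stimulated genes had the lowest median of the lists, -2.99 over 27 members, yet none was called in either direction. The sign of this median differed between the clone sets. Within clones 1 to 13 it was 1.16, with 25 of 27 positive, and within clones 15 to 25 -3.70, with 0 of 25 positive. The summed level of the list spread from 369 to 6967 CPM within the high-score and from 336 to 20502 CPM within the low-score clones.

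**Figure D3:**
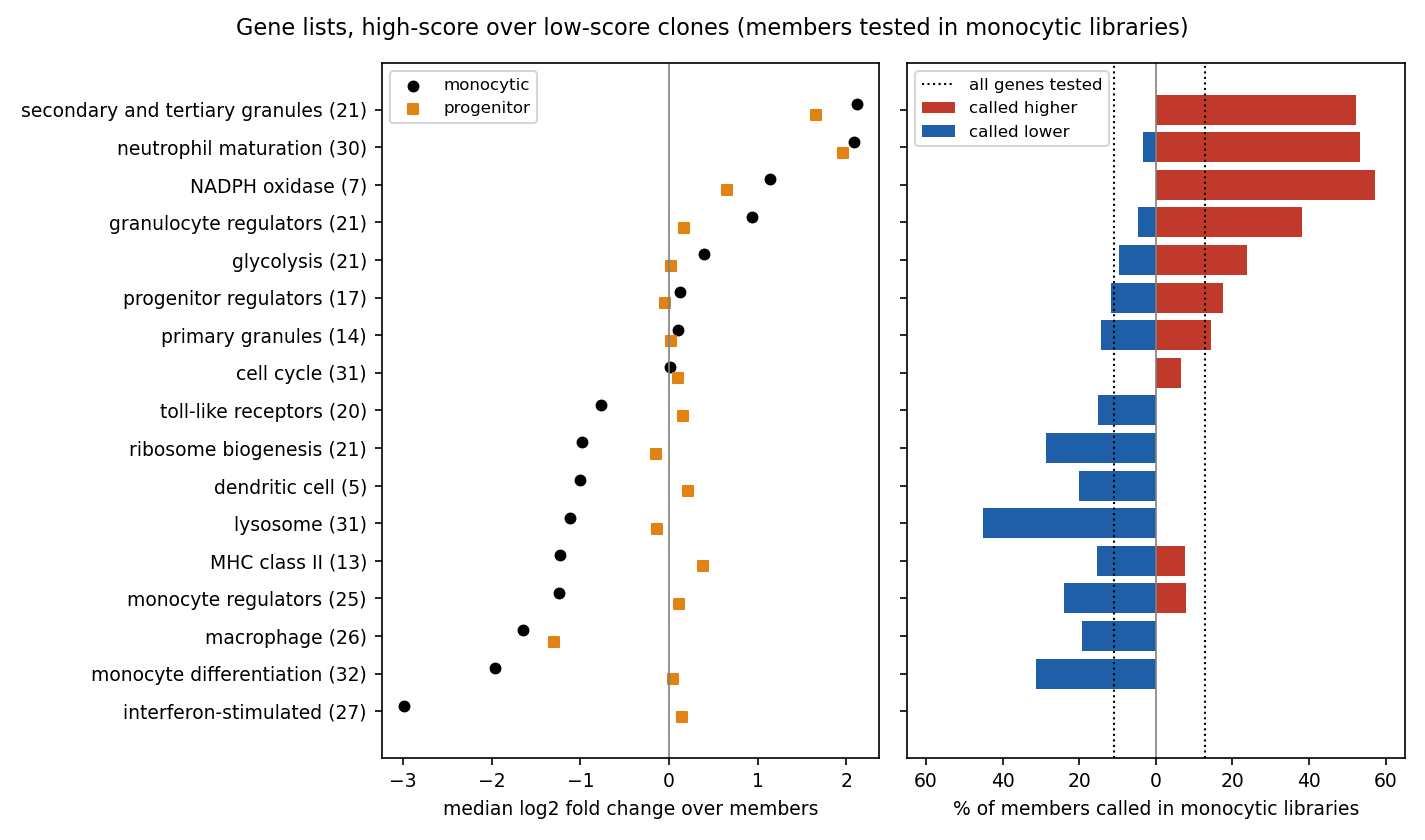
Left, median log2 fold change (high-score over low-score) over the tested members of 17 gene lists in monocytic (black) and progenitor (orange) libraries; right, percent of members called higher (red) or lower (blue) in monocytic libraries, with dotted lines at 12.8% and 10.9% for all genes. Granule and maturation medians are farthest to the right (2.12 and 2.09), and of the 17 lists drawn the lysosome list has the largest share lower (14 of 31).

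Few cell cycle genes were called. Of 31 cell cycle genes 2 were called higher, a smaller share than the 12.8% of all genes. They were Ccnd3, a cyclin gene (1.45), and Cdkn1b, which encodes an inhibitor of the cycle (1.55). The list had a median of 0.01. That median joins opposite signs in the 2 clone sets. It was 1.55 within clones 1 to 13, with 30 of 31 positive, and -0.50 within clones 15 to 25, with 25 of 31 negative. Of 21 ribosome biogenesis genes 6 were called lower, a larger share than the 10.9% of all genes, and none higher (median -0.98). The median was -0.40 within clones 1 to 13 and -1.22 within clones 15 to 25. Rrs1, a ribosome assembly factor, had 4.09, 25 and 31.5 against 12.2, 41.3 and 116 CPM, and its highest values were those of clones 22 and 17 (116 and 81.5 CPM). Without clones 17 and 22, Bop1 of the same list lost its call (-0.69, from -0.88) and Cirh1a kept its call (-1.27, from -1.55). Glycolysis genes were called in both directions (5 higher, 2 lower of 21), and 3 of 19 cholesterol synthesis genes were called higher. Toll-like and related receptors were called lower in 3 of 20, and MHC class II genes in 2 of 13 with 1 higher. Of all genes 12.8% were called higher and 10.9% lower, so the cholesterol, receptor and MHC class II counts were near those shares. Among mast cell, basophil and eosinophil genes 2 of 16 were called higher, also near the share of all genes, and 1 lower. Their median log2 fold change was -1.68 within clones 1 to 13 and 2.15 within clones 15 to 25. Their summed level reached 14818 CPM in 1 high-score clone, against a group median of 887 CPM. In the low-score clones it ran from 396 to 3640 CPM. Summed B cell genes reached at most 104 CPM, T and NK cell genes 238 CPM and stromal and endothelial genes 257 CPM, and their medians were lower in the high-score clones (13.4 against 66.7, 69.1 against 134 and 112 against 196 CPM); the part of such cells in the results was not tested. Kit, the SCF receptor, was not called (0.12 ± 0.463). Hoxb8 was not called either (1.17 ± 0.419), with 203 to 922 CPM and 57.1 to 607 CPM; the highest value was that of clone 19. Without clones 17 and 22 Hoxb8 was called higher, at 1.36.

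Among the 28 genes with the largest differences, many lay outside the gene lists. Card10, a scaffold of NF-kappa-B signalling, ran from 16.4 to 71 CPM in the high-score and from 0 to 10 CPM in the low-score clones (4.01 ± 0.786). Mapk13, a kinase of the p38 family, ran from 24.7 to 137 and from 0.658 to 18.7 CPM (3.55 ± 0.615). Neither overlapped. Plbd1, a phospholipase B-like protein, Bmx, a Tec family kinase, and Chi3l1, a chitinase-like protein, had log2 fold changes of 3.96, 3.81 and 3.79. Stfa3 and Stfa1, stefins that inhibit cysteine proteases and members of the maturation list, had 4.10 and 3.57. Stefin copies are near-identical, so reads could be split between them.

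Lower genes of this kind included Pcp4l1, a small calmodulin-binding family member, with 5.64 to 29.6 against 35.8 to 321 CPM and no overlap (-3.26 ± 0.639). Sdc1, the proteoglycan syndecan, had 1.09, 22.4 and 66.3 against 17.2, 74.2 and 221 CPM (-3.38 ± 0.638). Ly9, a SLAM family receptor, had 1.36, 24.3 and 51.1 against 39.9, 124 and 171 CPM (-3.33 ± 0.644). Tnni3k, a kinase best known from heart, Pdgfa, a growth factor, Olfm1, an olfactomedin, and Man1a, a Golgi mannosidase, differed by -4.45, -3.42, -3.29 and -3.11, all with overlapping groups. Without clone 21 the calls of Tnni3k, Plbd1, Chi3l1, Stfa3 and Stfa1 were lost, with the direction kept. Of the 28 genes, the middle clones had a median between the groups for all 14 higher and 10 of the 14 lower, against 63.7% of all genes tested. This too is a description, since the same score placed those clones.

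The progenitor libraries of the same 16 clones were not used to choose them and give the independent test. Of 12550 genes, 0 were called by edgeR (0%); the lowest adjusted p was 0.708, 881 genes had an unadjusted p under 0.05 and DESeq2 called 30. No gene had groups that did not overlap (0%). The 1345 genes called higher in monocytic libraries and tested here had a median log2 fold change of 1.12 there and 0.15 in progenitors, and the 1161 called lower had -1.33 and -0.17. A fit without clone 5 holds no low-score clone of the set 1 to 13. With the set as covariate, its group difference is that within clones 15 to 25. Without clone 5, the only low-score clone of its set, 65 genes were called, 57 of them higher; within clones 15 to 25 alone 0 were called and within clones 1 to 13 alone, against the single clone 5, 32 were.

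Granule and maturation genes had the highest progenitor medians of the lists over all 16 clones, but opposite signs in the 2 clone sets. The median log2 fold change was 1.66 over 20 secondary and tertiary granule genes, 16 of them positive, and 1.96 over 25 maturation genes, 21 of them positive, against -0.028 over all genes; none was called. Within clones 1 to 13 (5 against clone 5) the medians were -1.40, with 3 of 20 positive, and -0.78, with 6 of 25 positive. Within clones 15 to 25 (3 against 7) they were 2.44 over 19 genes, 16 of them positive, and 3.45, with 22 of 25 positive. S100a8 stood at 3.12, 2817, 44.5, 3256, 110, 73.2, 3.75 and 1.61 CPM in the progenitors of high-score clones 9, 21, 19, 20, 3, 2, 8 and 6. The progenitors of low-score clones 5, 15, 18, 25, 24, 22, 17 and 23 had 142, 135, 19.7, 0.923, 4.11, 0.13, 0.316 and 0.242 CPM. Clones 20 and 21 were far above the rest, while clone 9, with the highest score of all, was as low as several low-score clones. The difference was 3.73 ± 2.05 on the log2 scale (edgeR, adjusted p = 0.722). It was -1.90 within clones 1 to 13 and 6.51 within clones 15 to 25 (adjusted p = 1 and 0.253). It was 3.05 without clone 20 and 6.53 without clone 5 (adjusted p = 0.0927). With 6 clones per group it was called, at 8.87 (edgeR, adjusted p = 0.0217). All 6 low-score clones then came from the set 15 to 25. As without clone 5, the difference was therefore that within clones 15 to 25, and the set with the negative sign did not enter it. With 10 per group it was 2.57 (adjusted p = 1).

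Ltb4r1 stood at 21.7, 113, 47.8, 173, 18, 21.9, 16.5 and 20.2 CPM in the high-score and at 24, 28.7, 21.1, 17.5, 27.4, 11.1, 17.5 and 14.9 CPM in the low-score progenitors. Clones 20, 21 and 19, the 3 high-score clones of their set, were the highest, and the other 5 lay within the low-score range. The difference was 1.53 ± 0.393 (edgeR, adjusted p = 0.708). It was -0.27 within clones 1 to 13 and 2.44 within clones 15 to 25 (adjusted p = 1 and 0.198). Without clone 5 it was 2.46 with an edgeR adjusted p of 0.0267, and with 6 clones per group 2.55 with an adjusted p of 0.0115. In both fits the set 1 to 13 held no low-score clone, so the difference was again that within clones 15 to 25. Camp, at 0.0423 to 176 CPM and 0 to 17 CPM, differed by 3.43 ± 1.93 (adjusted p = 0.724), and Lrg1 by 2.99 ± 1.65 (adjusted p = 0.723). Within clones 1 to 13 both were negative (-2.36 and -2.85) and within clones 15 to 25 both positive (6.78 and 5.87).

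Regulators that stood apart in the monocytic state were closer in progenitors. Cebpe stood at 5.7, 96.7, 15.2, 117, 8.96, 7, 5.09 and 4.8 CPM in the high-score and at 22.9, 17.9, 20.1, 24.9, 20.2, 2.72, 6.56 and 2.67 CPM in the low-score progenitors. Its group medians, 7.98 and 19 CPM, were in the opposite order to the monocytic ones, and the fitted difference was 0.90 ± 0.677 (adjusted p = 0.809), with -1.85 within clones 1 to 13 and 2.44 within clones 15 to 25. Irf8 differed by 0.29 ± 0.362 (adjusted p = 0.901), Cd68 by -0.31 ± 0.578 (adjusted p = 0.948) and Gaa by -0.26 ± 0.258 (adjusted p = 0.862). Such p-values do not show that the progenitors were alike.

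**Figure D4:**
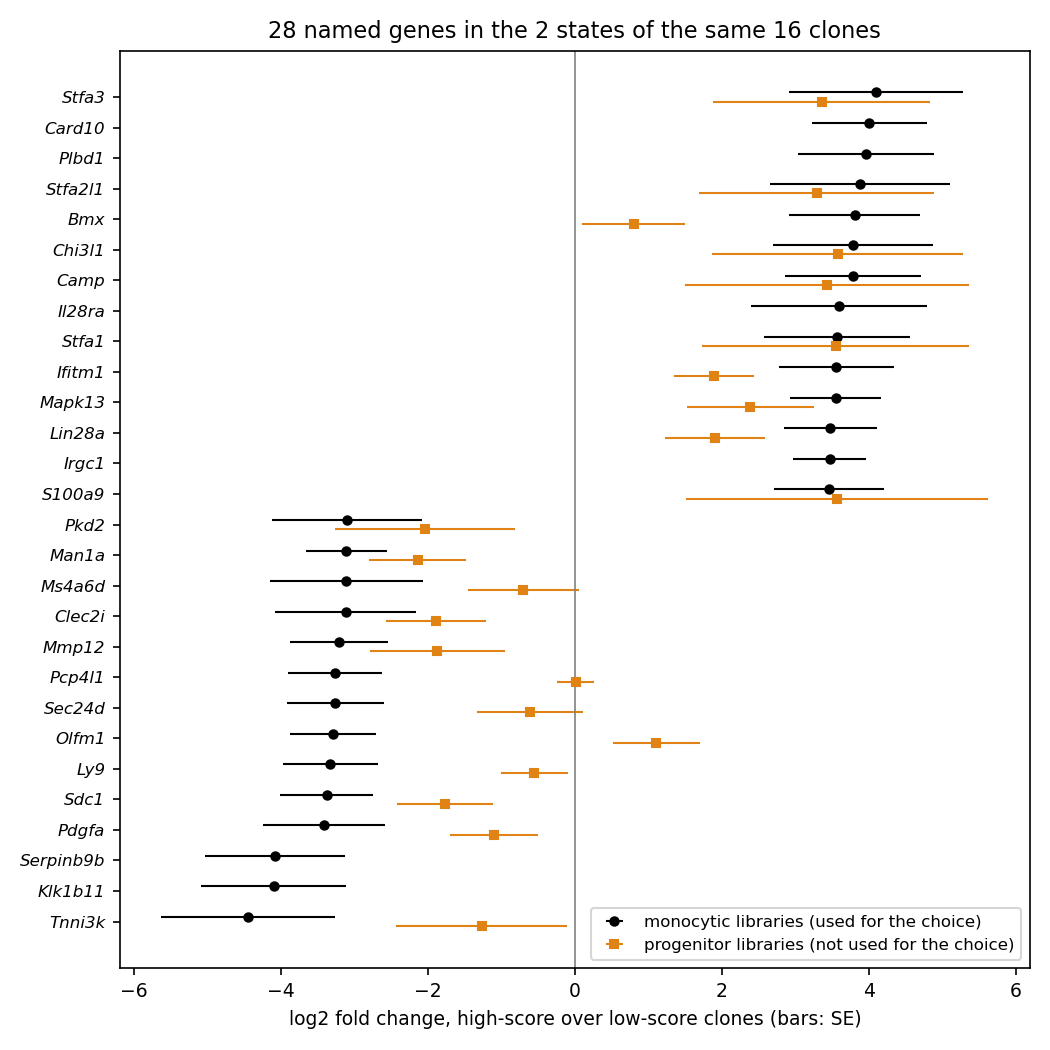
log2 fold change (high-score over low-score, bars SE) of the 28 genes with the largest named differences, in monocytic (black) and, for the 22 that could be tested there, progenitor libraries (orange). None was called in progenitors; S100a9, Camp and the stefins have differences above 3 with wide errors, all of them negative within clones 1 to 13 alone, while Pcp4l1 is at 0.01.

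Whether the step from progenitor to monocytic cells differed between the groups was asked with both libraries of each clone, the clone as a block. This fit contains the libraries that were used for the choice, so its calls too are descriptions. Of 13852 genes, 178 (1.29%) changed more in the upward direction in high-score clones and 265 (1.91%) more in the downward direction. It shares its monocytic libraries with the comparison above, so no overlap of the calls is given. Without the clone block 644 genes were called, with clones 1 to 13 alone 0 and with clones 15 to 25 alone 108. The count of 443 became 92 without clone 21, 137 without clone 20, 234 without clone 23, 254 without clone 3, 262 without clone 25, 284 without clone 2, 291 without clone 6, 294 without clone 18 and 847 without clone 19.

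Rab37, a GTPase of secretory granules, had 27.6, 99.2 and 114 CPM in high-score progenitors and 20.7, 66 and 113 CPM after maturation. In low-score clones it went from 32.7, 56.8 and 116 CPM to 6.91, 11.9 and 19.4 CPM. Its monocytic level was thus lower relative to the progenitors in low-score clones, with a difference of 2.81 ± 0.414 between the log2 changes. Rnf144a, a ubiquitin ligase, had medians of 108 and 106 CPM in the progenitors of the groups and 130 and 33.8 CPM in their monocytic libraries (3.73 ± 0.831). Tbc1d10c, a regulator of Ras and Rab GTPases, went from 43.1 to 75.5 CPM in high-score and from 33.6 to 18.3 CPM in low-score clones (2.77 ± 0.506, medians). Sept1, a septin, differed by 3.14 ± 0.575.

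In the other direction, Olfm1 had medians of 5.02 and 4.73 CPM in the 2 states of high-score clones and 9.58 and 28.2 CPM in those of low-score clones (-4.26 ± 0.784). Cds1, an enzyme of phospholipid synthesis, went from 6.27 to 2.71 CPM and from 4.56 to 17.7 CPM (-3.11 ± 0.716). Gas6, the ligand of the Axl and Mertk receptors, went from 26.7 to 13.3 CPM and from 11.3 to 92.2 CPM (-3.64 ± 0.843). It was not called in the monocytic comparison alone. Slc6a12, a betaine transporter, was likewise called for the change (-3.51 ± 0.897) and not for the monocytic level over all 16 clones; without clones 17 and 22 its monocytic level was called lower, at -1.93. Without clone 20 and without clone 21 the calls of Gas6, Cds1, Rnf144a and Slc6a12 were lost, with the direction kept. Nckap5l, a microtubule-associated protein, and Slc27a1, a fatty acid transporter, differed by -3.42 ± 0.477 and -2.93 ± 0.667. Of the 31 lysosomal genes 7 were called lower in this comparison; Gaa had medians of 196 and 57.2 CPM in the high-score and of 205 and 176 CPM in the low-score clones before and after maturation.

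**Figure D5:**
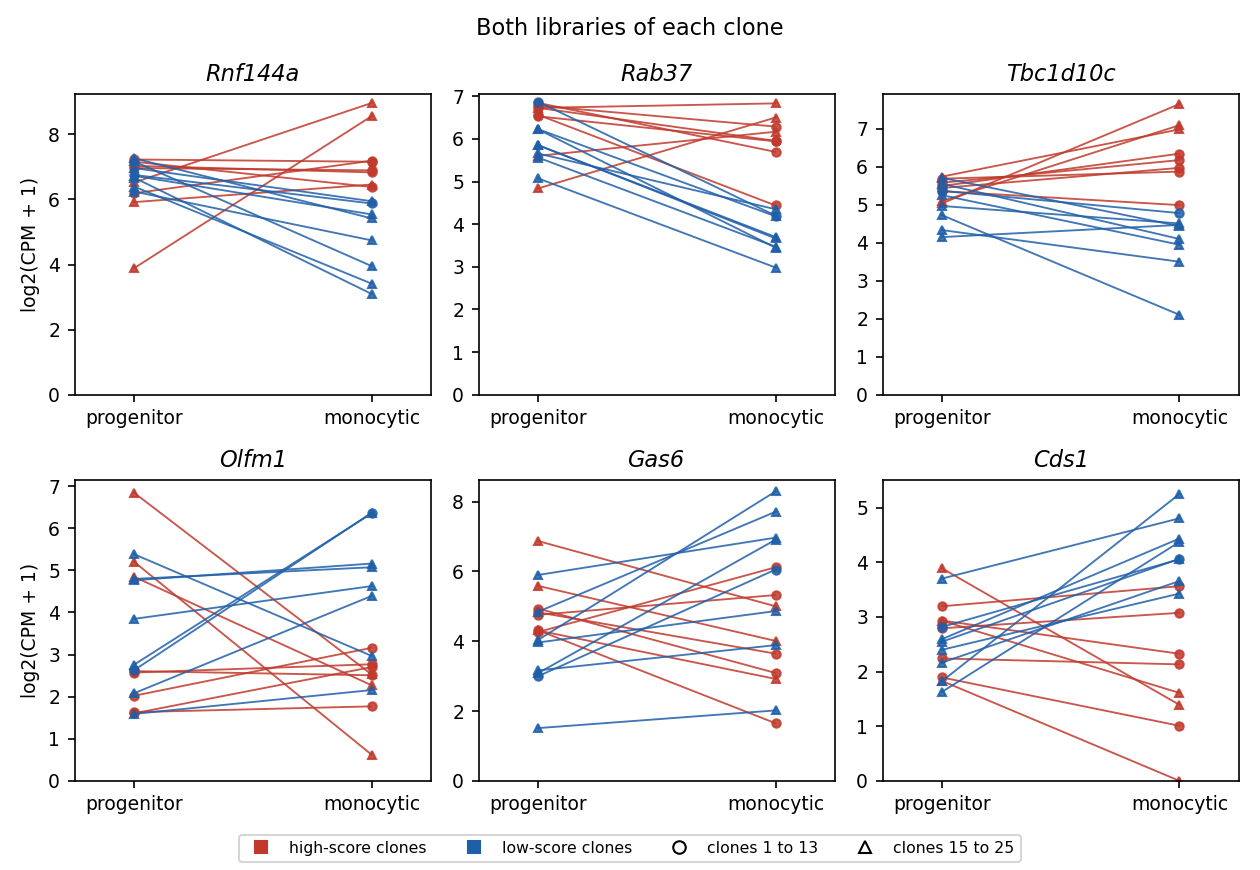
log2(CPM + 1) of 6 genes in the progenitor and monocytic library of each high-score (red) and low-score (blue) clone, 1 line per clone; circles, clones 1 to 13; triangles, clones 15 to 25. Rnf144a, Rab37 and Tbc1d10c end higher in most red lines, and Olfm1, Gas6 and Cds1 end higher in most blue lines.

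The primary monocyte classes offered a readout outside the clones. Of 1337 genes called higher in high-score clones and detected in the classes, 49.8% had their highest mean in class 4. The share was 38.0% of all 10499 genes tested and detected and 28.4% of 1154 genes called lower. For classes 1, 2 and 3 the shares of genes called higher were 4.26%, 23.3% and 22.7%, against 8.93%, 21.6% and 31.4% of all. Among the sorted subsets 48.9% were highest in classical, 23.3% in intermediate and 27.8% in nonclassical cells, against 45.7%, 31.7% and 22.6%. S100a8 had 68.4 and 141 CPM in class 1, 86.7 and 146 in class 2, 1547 and 1186 in class 3 and 9407 and 13959 in class 4. Camp, Ltf and Cebpe were also highest in both class 4 libraries, Cebpe with 68 and 127 CPM against 6.1 and 6.6 CPM in class 1. Ltb4r1 was not, with 148 and 188 CPM in class 4 and 218 and 175 CPM in class 2. Plbd1, higher in high-score clones, was lowest in classes 3 and 4 (249, 155, 291 and 325 CPM), and Irf8 was highest in class 3 (1403 and 1503 CPM) and not lowest in class 4 (802 and 745 CPM). With 2 libraries per class these levels are descriptions.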

How the data were processed

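Total RNA was sequenced in bulk from 48 libraries of 24 ER-Hoxb8 clones and from 14 libraries of primary monocytes. The deposited table holds raw read counts per gene for 37620 genes; STAR 2.7.3a, HTSeq 0.6.0 and the build mm9 were used per the submitters' processing notes, and the strand setting and annotation are not given in the sources used here. Of 63 columns, 1 that the labels tie to no sample was left out. The members and the gene lists were chosen with earlier results of these data known.

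CPM is the count divided by the library total and scaled per mega count. Differences were fitted in R 4.3.3 by edgeR 4.0.16, which draws on limma 3.58.1 (TMM scaling, filterByExpr with a minimum count of 10, 2-sided quasi-likelihood F tests, Benjamini-Hochberg over all genes without Ngp and Csf1r, threshold 0.05, 13 residual degrees of freedom), with the clone set as covariate. SE is the log2 fold change divided by the root of F. The maturation fit tested state by group with the clone as block; libraries are paired by clone per the series' design text, and the deviations of the 2 libraries of a clone correlated at a mean of 0.199, against -0.0124 between clones (above 0.1 in 11 of 16). Scripts were tested on simulated data. DESeq2 1.42.0 was an alternative, beside others on normalization, filter, depth, sets, group size and single clones. Summaries used Python 3.11.15.

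Named genes were, among calls of one direction in both clone sets whose log2 CPM averaged 3 or more, the 14 largest differences each way (8 for maturation), up to 3 called members and the most expressed uncalled member of each of 29 lists, and a fixed set (Cebpa, Cebpe, Gfi1, Spi1, Irf8, Klf4, Csf3r, Ly6c2, Ly6g, Cx3cr1, Ccr2, S100a8, Elane, Mpo, Camp, Ltf, Hoxb8, Kit). The rule passes over predicted genes and pseudogenes, and not every gene it takes is described; some results are not reported here. Of the gene IDs, 32897 matched an annotation used for names only. Promoters are from RefSeq (GRCm38.p6); no other coordinates are given, since the counts are on mm9.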

Additional observations from a re-analysis of the deposited data

Results flagged for a closer look

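Among the 63 genes examined for this purpose, 252 groups of 8 libraries were searched for 1 library far from the rest on the log2(CPM + 1) scale; 15 (5.95%) held one, and chance alone marks about 1 in 20. The value given is the gap to the nearest library as a part of the whole range. In the monocytic libraries of low-score clones, clone 22 was lowest for Irf8 (48.1 CPM, next 141; 0.66), Cx3cr1 (7.86, next 87.3; 0.664), Ncf4 (218, next 300; 0.574) and Slc6a12 (11.9, next 79; 0.552). Clone 5 was highest there for Ly6g (3.49 CPM, next 0.718; 0.64) and Man1a (186, next 68.5; 0.712), clone 15 was highest for Ccr2 (1220; 0.53) and clone 25 lowest for Klf4 (2.79, next 10.8; 0.534). Clone 19 was highest among monocytic libraries of high-score clones for Hoxb8 (922 CPM, next 275; 0.802). Among high-score progenitors, clone 20 was highest for Card10 (4.07 CPM, next 0.16; 0.909) and Mapk13 (10.6, next 1.04; 0.71). The clone 21 progenitor library, which has 0.362 M counts, was lowest for Rrs1 (69.1 CPM, next 104; 0.731), Rnf144a (13.8, next 59.5; 0.607) and Pld4 (0, next 5.26; 0.562). Among low-score progenitors, clone 5 was highest for Plbd1 (0.935 CPM, next 0.147; 0.793).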

How the results depend on the processing

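The main counts of calls were 2569 in monocytic libraries, 0 in progenitors and 443 for maturation. In monocytic libraries the count was 3 with clones 1 to 13 alone and 4003 with the score as a continuous term over 24 clones; leaving out 1 clone at a time it ran from 1370 (clone 21) to 3366 (clone 19). In progenitors it was 30 with DESeq2, 3 without a count filter, 1 with depth as covariate, 32 with clones 1 to 13 alone, 84 with 6 clones per group and 8 with the continuous score; leaving out 1 clone it ran from 0 to 65 (clone 5). For maturation it was 1434 with DESeq2, 817 without the set covariate, 0 and 108 in the 2 sets alone and 830 with 10 clones per group; leaving out 1 clone it ran from 92 (clone 21) to 847 (clone 19). Dropping the replicate block, which pairs libraries by clone, gave 644 calls. The sets alone hold fewer clones (5 against 1 and 3 against 7). Without clone 5 and with 6 clones per group, no low-score clone of the set 1 to 13 is left, and the group difference is that within clones 15 to 25. The cause of the other shifts was not tested. Depth as covariate was not run for maturation. Without clones 17 and 22 the counts were 2522, 0 and 423, and a score with TMM-scaled CPM picked the same clones. Log2 fold changes that changed sign and were called in at least one of the 2 fits were Clec2i in monocytic libraries without the set covariate (0.12), Hdc (-0.68) and Sfpi1 (-0.10) there with clones 1 to 13 alone, and Cd14 (-1.84), Elane (-3.22) and Pglyrp1 (-1.75) in progenitors with clones 1 to 13 alone. Called or not, the sign with clones 1 to 13 alone was opposite for 12 of 149 named genes in monocytic libraries, 83 of 138 in progenitors and 29 of 149 for maturation, and with clones 15 to 25 alone for 4 of 145, 7 of 139 and 13 of 148. Leaving out single clones, S100a8, S100a9, Camp, Lrg1, Ltb4r1, Pglyrp1, Cebpe, Cebpd, Id1, Ncf1, Irf8, Cd68, Pld4, Gaa, Glb1, Lipa and Gpnmb kept their monocytic calls each time. Ccr2, Chi3l1, Csf3r, Ctss, Klf4, Rrs1 and Sfpi1 lost theirs without clone 20 and without clone 21, Ctss and Sfpi1 also without others, and Egr2 and Pdgfa without clone 5. The interaction of group and clone set was called for 2 of 11767 genes, 1734 at an unadjusted p under 0.05. Shallow libraries (1.83 to 9.12 M counts) limit low genes such as Ly6g and Cd163.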
